A study of Mus musculus with 24 samples.

Results

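The ATP-dependent chromatin remodelling genes were followed in hindlimb buds of mouse embryos heterozygous for Nipbl. The set was a list of 47 genes that encode the ATPases and subunits of the ISWI, SWI/SNF, CHD/NuRD and INO80 families, with 4 further ATPases of the SNF2 superfamily. A member was taken where a probe set had that gene symbol alone in the platform's annotation, and the brightest probe set over all 24 arrays was used for a gene with several. All 47 listed genes were found this way, among 19937 genes measured. The families held 8 (ISWI), 15 (SWI/SNF), 17 (CHD/NuRD), 3 (INO80) and 4 (other SNF2) members.

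Remodelling enzymes burn ATP to slide, space, evict or exchange nucleosomes, and so set which stretches of DNA transcription factors and polymerases can reach. ISWI enzymes mainly space nucleosomes into regular arrays, SWI/SNF enzymes push and eject them at enhancers and promoters, NuRD couples remodelling by CHD ATPases to histone deacetylation, and the INO80 family exchanges histone variants. Nipbl loads cohesin, the ring complex that folds DNA into loops, and the ISWI ATPase Smarca5 is known both as a partner of cohesin and for its role in binding of the boundary factor CTCF.

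The study compared 12 wild type embryos (Nipbl+/+) with 12 Nipbl+/- embryos, to find out which transcripts differ when 1 copy of Nipbl is lost. All were at embryonic day E10.5, and the paper describes them as littermates matched for stage. The labels do not say which embryos shared a litter. Left and right hindlimb buds of an embryo were pooled, and each embryo had its own Affymetrix Mouse Gene 1.0 ST array, whose probes lie along the whole transcript. The values are log2 intensities normalized with RMA, and no other agent or allele is named in the labels. Per the methods the mutant mice were of the RRS strain, and what the mutation does to the gene is not described in the sources used here.

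Nipbl itself followed the labels. Its log2 intensity lay between 10.32 and 10.72 in wild type embryos (median 10.53) and between 9.54 and 9.97 in Nipbl+/- embryos (median 9.89). The groups did not overlap, and the ratio of Nipbl+/- to wild type was 0.630 (a log2 difference of -0.67 with a standard error of 0.049, adjusted p = 2.42e-09 from limma).

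The groups differed in sex. By Xist and the Y-linked genes, 8 of 12 wild type but 3 of 12 Nipbl+/- embryos were female. An array of each genotype stood apart, wild type replicate 3 by Xist and Y-linked values between those of the sexes (its Y-linked genes exceeded Xist, and it was counted as male), and Nipbl+/- replicate 2 by the narrowest spread among its group (interquartile range 3.40). The hindlimb genes Tbx4 and Pitx1 had mean log2 intensities of 11.71 and 11.54 in wild type embryos, and the forelimb gene Tbx5 had 5.92. Lists of markers covered mesenchyme, hindlimb, ectoderm, endothelium, red cells, macrophages, muscle precursors, nerve and the cell cycle. Over these lists 3 genes passed at an adjusted p under 0.05 in limma, beside 0.813% of all genes. All 3 were higher in Nipbl+/- (Lhx9, Erbb3 and Pcna). Of the 8 macrophage markers, 3 were lower at an unadjusted p under 0.05 in limma, beside 5.14% of all genes. All 8 had a negative log2 difference, with a median of -0.10, beside 10668 of 19937 genes. The part of sex and of these markers in the results below was not tested beyond the fits by sex. In whole limb buds, fewer cells of a type and less RNA per cell cannot be told apart.

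The genes that rose in Nipbl+/- hindlimb buds were Smarca5, the main ISWI ATPase, by a ratio of 1.22, and Arid2, by 1.14, the DNA-binding subunit that defines the PBAF form of SWI/SNF. The call of Arid2 was lost with the sex of the embryos as a covariate (adjusted p = 0.0870 from limma), while that of Smarca5 was kept. The other 45 members did not pass the test. At an adjusted p under 0.05 over all genes in limma, 2 of 47 members were higher in Nipbl+/-, beside 0.286% of all genes (0.813% passed in either direction). By the same test 0 of 47 were lower, beside 0.527% of all genes. At an unadjusted p under 0.05 the counts were 5 higher and 0 lower, beside 4.13% and 5.14% of all genes. A t-test on linear values with Benjamini-Hochberg adjustment also called 0 members lower, beside 0.522% of all genes. The 5 members with an unadjusted p under 0.05 were Smarca5, Arid2, Baz2a, Bptf and Srcap.

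The set as a whole had no common direction. The median log2 difference of the 47 members was 3.1e-05, beside -0.0049 for all genes, and 24 members had a positive and 23 a negative difference. By family the median was 0.021 for ISWI, -0.017 for SWI/SNF, 0.0027 for CHD/NuRD, 0.055 for INO80 and 0.019 for the other SNF2 ATPases. For 42 of the 45 members that did not pass, the 95% interval of the difference lay inside 0.20 on either side of 0, which is a ratio from 0.871 to 1.15. The same held for 15433 of the 19775 genes of the whole series that did not pass. The intervals of the members Smarca1, Baz2a and Chd3 reached further. The median SD among wild type embryos was 0.078 for the members, beside 0.127 for all genes.

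**Figure D1:**
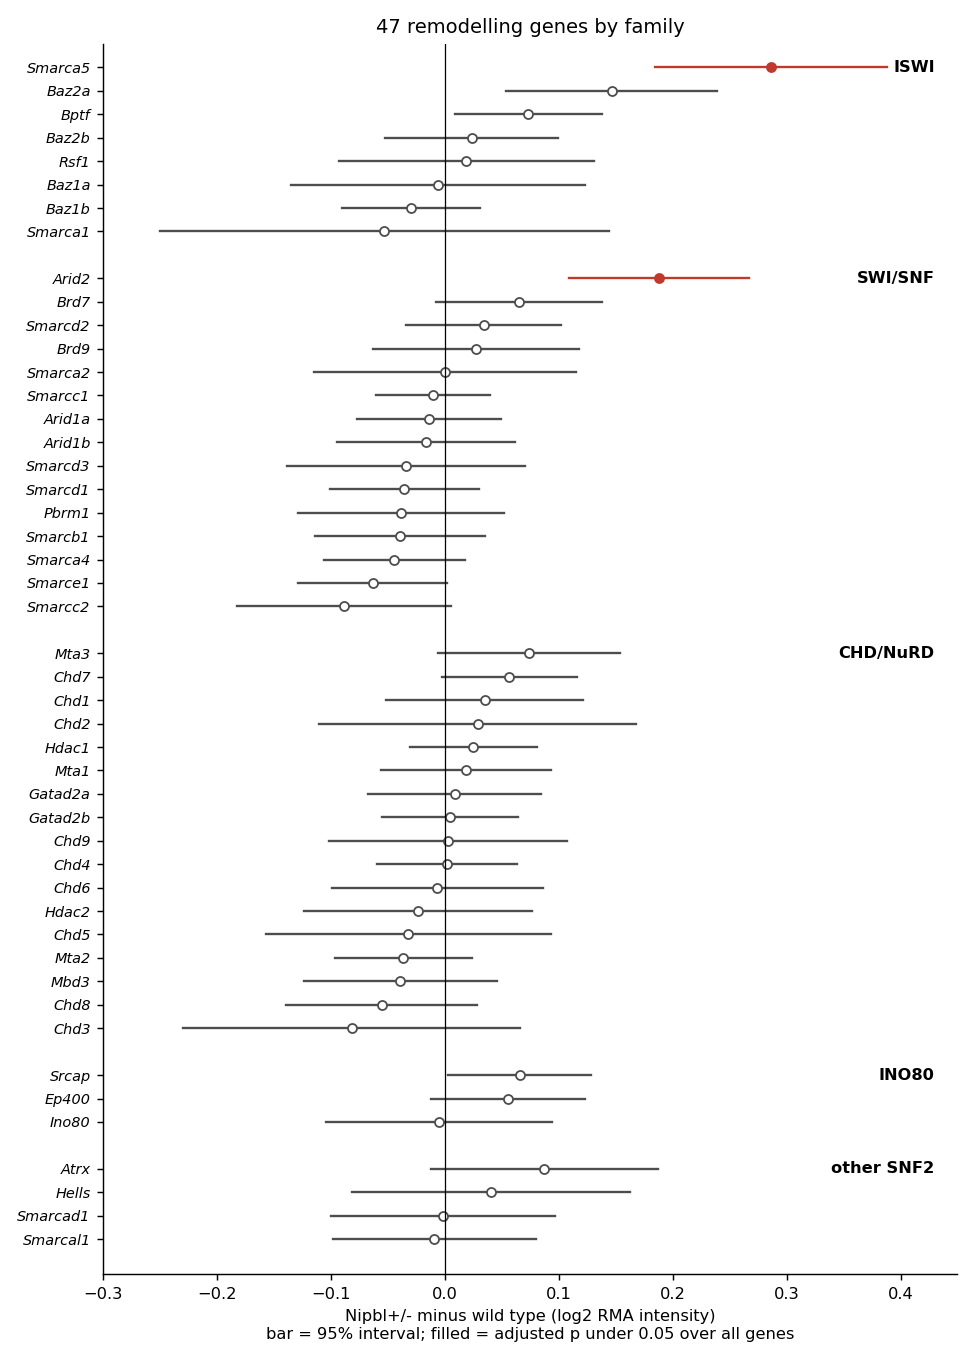
Log2 difference (Nipbl+/- minus wild type, horizontal axis) of the 47 remodelling genes by family, with 12 embryos a genotype. Bars are 95% intervals from limma and filled points have an adjusted p under 0.05 over all genes; Smarca5 (0.29) and Arid2 (0.19) lie to the right of the other members, whose points run from -0.088 to 0.15.

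Smarca5 (also SNF2H, chromosome 8, probe set 10579915) is the ATPase of most mammalian ISWI complexes. Its log2 intensity lay between 10.99 and 11.42 in wild type embryos (median 11.18) and between 11.25 and 11.61 in Nipbl+/- embryos (median 11.48). The groups overlapped at their edges: all 12 Nipbl+/- embryos lay above the wild type mean, and 10 of them above the highest wild type embryo. No member had groups without overlap on the higher side, as 0.015% of all genes did. The means of 11.18 ± 0.14 and 11.47 ± 0.11 (SD, n = 12 each) gave a log2 difference of 0.29 (standard error 0.050, 95% interval 0.18 to 0.39, adjusted p = 0.00199 from limma). As a ratio this was 1.22, with a 95% interval from 1.14 to 1.31.

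The difference of Smarca5 had the same sign in both sexes. Among females the log2 difference was 0.32 (standard error 0.079), with 8 wild type and 3 Nipbl+/- embryos, and among males it was 0.24 (standard error 0.078), with 4 and 9 embryos. With so few arrays neither passed over all genes (adjusted p = 0.184 and 0.477 from limma). Without wild type replicate 3, 1 of the 4 wild type males, the male difference was 0.19 (standard error 0.082, adjusted p = 0.833 from limma). With the sex of the embryos as a covariate the difference was 0.28 (adjusted p = 0.0110 from limma), and 0.26 without that replicate (adjusted p = 0.0221 from limma).

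**Figure D2:**
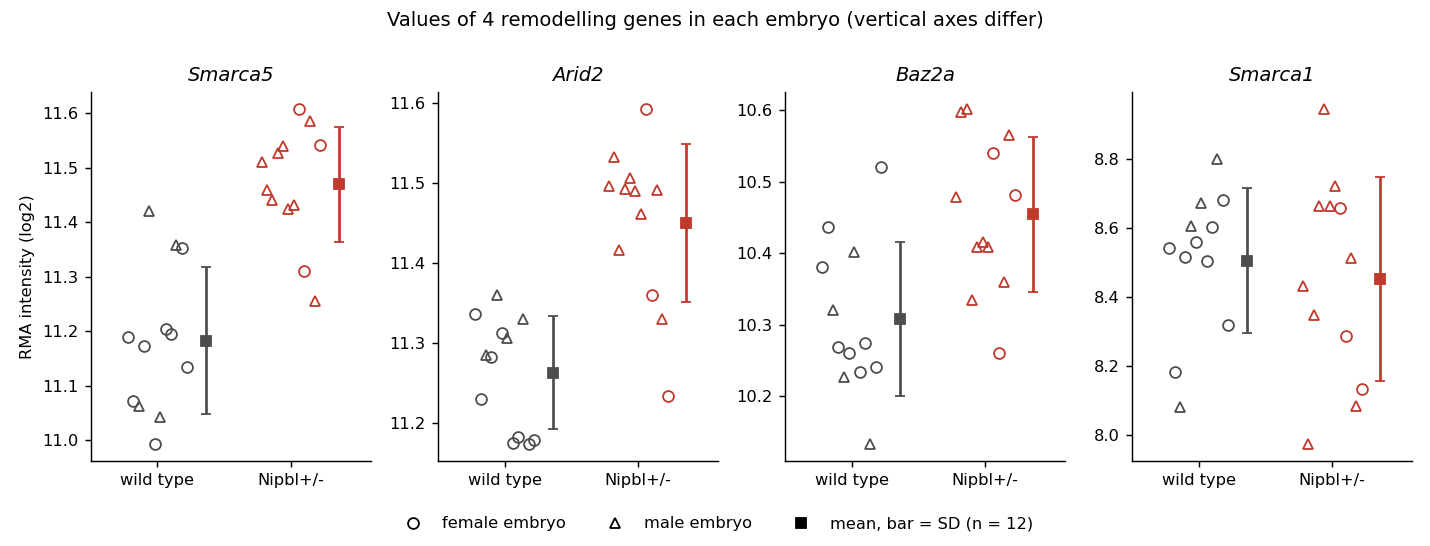
Log2 RMA intensity (vertical axes, each with its own range) of Smarca5, Arid2, Baz2a and Smarca1 in each of 12 wild type and 12 Nipbl+/- embryos; circles are females, triangles are males, and squares with bars are means with SD. For Smarca5 and for Arid2, 10 Nipbl+/- embryos lay above the highest wild type embryo, while for Smarca1 the genotypes cover nearly the same range.

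The genes beside Smarca5 on chromosome 8 did not pass. Frem3, an extracellular matrix gene, had a log2 difference of 0.0071 (adjusted p = 0.993 from limma), and Gab1, a signalling adaptor, had -0.066 (adjusted p = 0.758). A further 3 probe sets are annotated to Smarca5 together with other genes, so that their signal cannot be assigned to 1 gene, and they were left out of the gene's value. Their log2 differences were 0.0064, -0.065 and 0.096, and none of the 3 passed over all probe sets (lowest adjusted p = 0.342 from limma). With their mean as a covariate the difference of Smarca5 was 0.28 (adjusted p = 0.00193 from limma).

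Smarca1 (SNF2L, chromosome X) is the other ISWI ATPase of mammals and the usual motor of the NURF complex. Its log2 intensity lay between 8.08 and 8.80 in wild type embryos (median 8.55) and between 7.97 and 8.94 in Nipbl+/- embryos (median 8.47). The ranges lay almost on top of each other, and 6 of 12 Nipbl+/- embryos were above the wild type mean. The log2 difference was -0.053 (standard error 0.096, 95% interval -0.25 to 0.14, adjusted p = 0.959 from limma), so a change of the size found for Smarca5 lay outside its interval.

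Whether these paralogs responded differently was tested directly, by the difference Smarca5 minus Smarca1 within each embryo. That contrast was higher by 0.34 in Nipbl+/- (standard error 0.092, 95% interval 0.15 to 0.53), and 11 of 12 Nipbl+/- embryos exceeded the wild type mean. A two-sided permutation test gave p = 0.00149, or 0.0119 after Benjamini-Hochberg adjustment over the 8 paralog pairs compared. The pair was picked with the rise of Smarca5 already known, so this test is not independent support for that rise.

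The proximal promoters of these paralogs are shown because their transcripts differed in response. The 250 bases before the RefSeq start on GRCm38.p6 are given in the direction of the gene, from the minus strand at chr8:80739460-80739709 for Smarca5 and at chrX:47892614-47892863 for Smarca1. The words searched on both strands were 6: the NRF1 core GCATGCGC, the BANP core TCTCGCGAG, the ETS core CCGGAAGT, the YY1 core ATGGCGGC, the NF-Y core CCAAT and the E-box CACGTG. Capitals mark the NRF1 and BANP cores, chosen after the matches were seen.
Smarca5: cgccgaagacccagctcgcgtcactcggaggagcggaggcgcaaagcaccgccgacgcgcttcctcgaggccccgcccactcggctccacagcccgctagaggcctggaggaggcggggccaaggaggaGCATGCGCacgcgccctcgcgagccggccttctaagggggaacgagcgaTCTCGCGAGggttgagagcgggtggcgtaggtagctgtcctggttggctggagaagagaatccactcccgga
Smarca1: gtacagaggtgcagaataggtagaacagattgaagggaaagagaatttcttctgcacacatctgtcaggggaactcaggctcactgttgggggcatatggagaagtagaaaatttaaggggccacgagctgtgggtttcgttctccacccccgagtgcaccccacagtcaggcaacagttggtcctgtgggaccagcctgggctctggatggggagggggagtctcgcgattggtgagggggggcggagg
The Smarca5 promoter held both words, the NRF1 core beginning 121 and the BANP core beginning 72 bases before the start. The Smarca1 promoter held neither as an exact word, and its CCAAT word, on the reverse strand and beginning 21 bases before the start, is left in lower case. Only exact words were searched. The BANP core without its last letter, TCTCGCGA, is in the Smarca1 window and overlaps that CCAAT word. The Smarca5 window also has the core without its first letter, CTCGCGAG, between the marked words. The ETS, YY1 and E-box words were in neither window. Of 32851 mouse promoters of this length, 2.26% held the NRF1 core, 0.569% the BANP core, 2.88% the ETS core, 1.03% the YY1 core, 33.8% a CCAAT word and 6.02% the E-box. The Smarca5 window had 29 CpG dinucleotides and 69.2% GC, and that of Smarca1 had 6 and 56.4%. A promoter entry was found for 37 of the 47 members, with a median of 21 CpG dinucleotides beside 6 over all promoters. The NRF1 core was also in the windows of Smarca4 and Smarcc1, and the BANP core in that of Hells, none of which passed the expression test. These matches are descriptions of sequence, with no measurement of binding.

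Among the regulatory subunits that pair with the ISWI ATPases, Baz2a had the next smallest p of the family. Baz2a (TIP5) brings Smarca5 to ribosomal RNA genes in the NoRC complex. It lay between 10.13 and 10.52 in wild type embryos (median 10.27) and between 10.26 and 10.60 in Nipbl+/- embryos (median 10.45). The ranges overlapped broadly, although 11 of 12 Nipbl+/- embryos were above the wild type mean. Its log2 difference of 0.15 (standard error 0.045) did not pass over all genes (adjusted p = 0.168 from limma).

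Bptf, the histone-reading subunit of NURF, had log2 intensities between 10.58 and 10.76 in wild type and between 10.65 and 10.89 in Nipbl+/- embryos. The difference of 0.073 (standard error 0.031) did not pass either (adjusted p = 0.431 from limma), and 7 Nipbl+/- embryos lay above the highest wild type embryo. Its second probe set had a difference of 0.036. The other ISWI partners were Baz1a of the ACF complex, Baz1b of WICH, Baz2b and Rsf1 of the RSF complex. Their differences were -0.0061, -0.030, 0.023 and 0.019, with a lowest adjusted p of 0.872 in limma.

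Arid2 (BAF200, chromosome 15, probe set 10426507) was the SWI/SNF member that passed. It lay between 11.17 and 11.36 in wild type embryos (median 11.28) and between 11.23 and 11.59 in Nipbl+/- embryos (median 11.49). As with Smarca5 the groups overlapped, with 10 of 12 Nipbl+/- embryos above the highest wild type embryo and 11 above the wild type mean. The means of 11.26 ± 0.071 and 11.45 ± 0.099 (SD, n = 12 each) gave a log2 difference of 0.19 with a standard error of 0.038 (adjusted p = 0.00969 from limma) and a ratio of 1.14 (95% interval 1.08 to 1.20).

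The call of Arid2 was lost when the sex of the embryos entered the fit, as a score of the Y-linked genes minus Xist. The log2 difference was then 0.15 (standard error 0.041, adjusted p = 0.0870 from limma), and without wild type replicate 3 it was also 0.15 (adjusted p = 0.0916 from limma). Within females it was 0.16 and within males 0.15 (adjusted p = 0.502 and 0.511 from limma), so the direction was alike in both, and 8 of 9 male Nipbl+/- embryos lay above the highest of 4 male wild type embryos. Arid2 shares chromosome 15 with Nipbl and with Smarcd1, whose difference was -0.036. The genes beside it, Gm4371 and the splicing-related Scaf11, had differences of 0.048 and 0.0023 (adjusted p = 0.902 and 0.997 from limma).

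The other subunits of PBAF did not pass with Arid2. Pbrm1, the bromodomain subunit found in PBAF, had -0.038 (adjusted p = 0.896 from limma). Its other probe sets had 0.032 and -0.025. Brd7, a second bromodomain subunit of PBAF, lay between 10.87 and 11.11 in wild type and between 10.79 and 11.13 in Nipbl+/- embryos, and 11 of 12 Nipbl+/- embryos lay above the wild type mean, yet its difference of 0.065 did not pass (adjusted p = 0.623 from limma). Arid1a and Arid1b, the ARID subunits that take the place of Arid2 in the BAF form, had differences of -0.014 and -0.017. Brd9, of the non-canonical form, had 0.027.

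Neither SWI/SNF ATPase passed the test. Smarca4 (BRG1) averaged 11.95 ± 0.057 in wild type embryos against 11.91 ± 0.057 in Nipbl+/- embryos (SD, n = 12 each), a difference of -0.044 (95% interval of the ratio 0.929 to 1.01, adjusted p = 0.736 from limma). Smarca2 (BRM) had 8.81 ± 0.14 and 8.81 ± 0.15 (SD, n = 12 each), a log2 difference of 3.1e-05 (95% interval of the ratio 0.923 to 1.08).

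Most core and scaffold subunits had negative differences, none of which passed. Smarcc2 (BAF170) had the lowest difference of the 47 members, -0.088 (standard error 0.046, adjusted p = 0.587 from limma), with embryos between 10.24 and 10.62 in wild type and between 10.19 and 10.52 in Nipbl+/-. Its paralog Smarcc1 (BAF155) had -0.011, and the difference between the pair was 0.078 (permutation test, adjusted p = 0.207 over the 8 pairs). Smarce1 (BAF57) had -0.063 (adjusted p = 0.565 from limma, standard error 0.032), and 1 of 12 Nipbl+/- embryos lay above the wild type mean. These values are of the brightest of 3 probe sets annotated to Smarce1, and the others had smaller differences, -0.031 and -0.036. Whether any of them reads a copy at another locus was not tested. The core subunit Smarcb1 (SNF5) had -0.040. The alternative subunits Smarcd1, Smarcd2 and Smarcd3 had -0.036, 0.034 and -0.034. In all, 10 of the 15 SWI/SNF members had a negative difference, and 0 of them passed at an unadjusted p under 0.05 in limma or in the t-test on linear values after adjustment.

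None of the 17 CHD/NuRD members passed at an adjusted p under 0.05 in limma or in the t-test on linear values, and none at an unadjusted p under 0.05. Differences ran from -0.082 (Chd3) to 0.074 (Mta3), with 10 positive and 7 negative. Chd1 and Chd2, chromodomain ATPases tied to transcribed genes, had 0.035 and 0.029. Chd4 (Mi-2 beta), the usual ATPase of NuRD, averaged 12.07 ± 0.047 in wild type embryos against 12.07 ± 0.065 in Nipbl+/- embryos (SD, n = 12 each), a log2 difference of 0.0017 (95% interval of the ratio 0.959 to 1.04). Chd3 (Mi-2 alpha) varied more, between 9.90 and 10.41 in wild type and between 9.75 and 10.39 in Nipbl+/- embryos. Its adjusted p was 0.836 from limma. Chd5, the ATPase of neural NuRD, had -0.032, and Chd6 and Chd9 had -0.0069 and 0.0027.

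Chd7, the ATPase mutated in CHARGE syndrome, lay between 11.79 and 11.97 in wild type and between 11.87 and 12.05 in Nipbl+/- embryos. The groups overlapped, 11 of 12 Nipbl+/- embryos lay above the wild type mean, and the difference of 0.056 (standard error 0.029) did not pass (adjusted p = 0.579 from limma). Chd8, its close relative and a regulator of Wnt target genes, had -0.056 (adjusted p = 0.765 from limma). Chd7 minus Chd8 within embryos was higher by 0.11 in Nipbl+/- (standard error 0.042, 95% interval 0.026 to 0.20), and 10 of 12 Nipbl+/- embryos lay above the wild type mean. Its permutation p was 0.0148 and 0.0593 after adjustment over the 8 pairs, which does not pass. With the mean of each gene's probe sets it was 0.080 (permutation test, adjusted p = 0.330 over the 8 pairs).

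The array carries 30 probe sets for Chd7, and they varied in sign. Their differences ran from -0.059 to 0.17 with a median of 0.020, and 16 of 30 were positive. At an unadjusted p under 0.05 in limma, 3 were higher and none lower, beside 8.48% of all 28159 probe sets in either direction. Of these, 1 passed over all probe sets, with a mean of 11.03 ± 0.092 in wild type embryos against 11.20 ± 0.071 in Nipbl+/- embryos (SD, n = 12 each), a difference of 0.17 (standard error 0.037, adjusted p = 0.0297 from limma). Which exons each probe set covers was not used here.

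**Figure D3:**
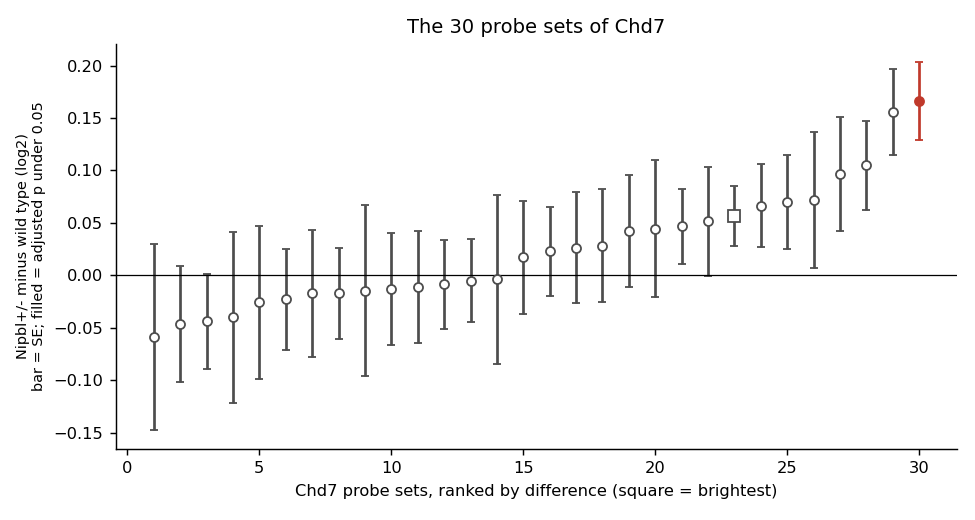
Log2 difference (Nipbl+/- minus wild type, vertical axis) of each of the 30 Chd7 probe sets, ranked along the horizontal axis; bars are standard errors from limma with 12 embryos a genotype, and the square is the brightest probe set (0.056). The filled point at 0.17 is the probe set with an adjusted p under 0.05, and the others lie on both sides of 0.

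The non-ATPase subunits of NuRD had differences between -0.039 and 0.074. Mta3 had the highest difference, 0.074, with embryos between 10.46 and 10.67 in wild type and between 10.47 and 10.84 in Nipbl+/- (adjusted p = 0.601 from limma). Mta1 and Mta2, the related scaffolds that hold the deacetylases, had 0.019 and -0.037, and 1 of 12 Nipbl+/- embryos exceeded the wild type mean of Mta2. Mbd3, the methyl-CpG-binding domain subunit of NuRD, had -0.039. The GATA zinc finger subunits Gatad2a and Gatad2b had 0.0084 and 0.0043.

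The deacetylases Hdac1 and Hdac2 had differences of 0.025 and -0.024. The 2 probe sets annotated to Hdac1 disagreed, and the brightest had 0.025. The second averaged 11.09 ± 0.086 in wild type embryos against 10.97 ± 0.12 in Nipbl+/- embryos (SD, n = 12 each). This was a difference of -0.12 (standard error 0.044, adjusted p = 0.302 from limma). Whether the second reads a copy at another locus was not tested. Mean values over both probe sets turned the Hdac1 minus Hdac2 contrast from 0.049 to -0.025. Neither value passed (permutation test, adjusted p = 0.552 and 0.840 over the 8 pairs).

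The intervals of the remaining 4 contrasts held 0. Chd4 minus Chd3 was 0.084 (95% interval -0.061 to 0.23), and Smarca4 minus Smarca2 was -0.045 (95% interval -0.16 to 0.070). Arid1a minus Arid1b was 0.0027 (95% interval -0.042 to 0.047), and Gatad2a minus Gatad2b was 0.0041 (95% interval -0.080 to 0.088). Their adjusted p ran from 0.481 to 0.918 in the permutation test over the 8 pairs.

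**Figure D4:**
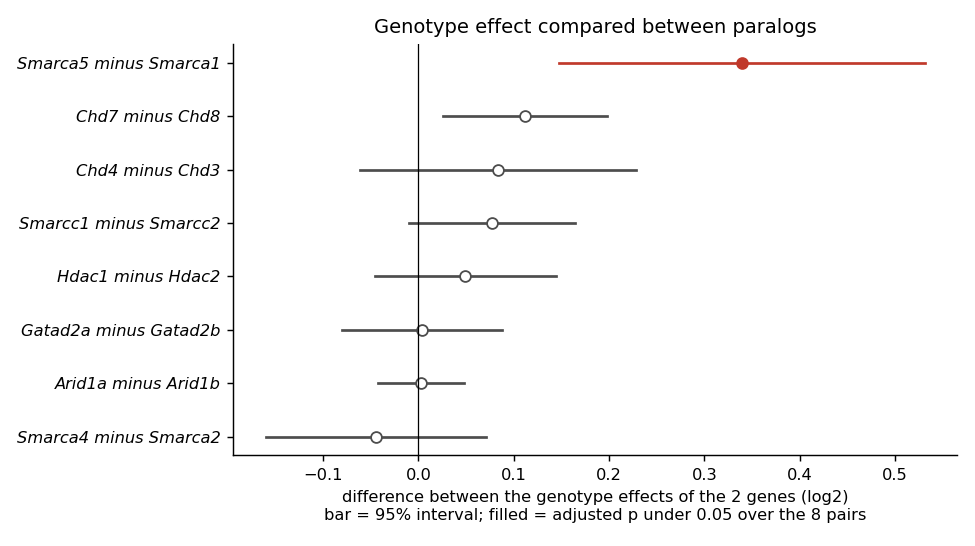
Difference between the genotype effects of the genes of each of 8 paralog pairs (horizontal axis, log2), computed within embryos, 12 a genotype, with 95% intervals as bars. The filled point, Smarca5 minus Smarca1 at 0.34, is the pair with an adjusted p under 0.05; Chd7 minus Chd8 at 0.11 has an interval above 0 but an adjusted p of 0.0593.

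Of the 3 ATPases of the INO80 family, 2 had positive differences, and none passed at an adjusted p under 0.05 in limma. Srcap, which deposits the histone variant H2A.Z, lay between 11.09 and 11.25 in wild type and between 11.07 and 11.29 in Nipbl+/- embryos. A difference of 0.066 (standard error 0.031) followed, with 10 of 12 Nipbl+/- embryos above the wild type mean (adjusted p = 0.506 from limma). Ep400, the ATPase of the TIP60 complex, had 0.055 (adjusted p = 0.670 from limma). Ino80, which gives the family its name, had -0.0055 (adjusted p = 0.994 from limma).

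The other SNF2 ATPases did not pass. Atrx (chromosome X), which places the histone variant H3.3 in heterochromatin, had 0.087 (standard error 0.049, adjusted p = 0.638 from limma). Its difference was 0.089 within females and 0.035 within males. Hells (LSH), needed for DNA methylation of repeats, had 0.040, Smarcad1, which keeps heterochromatin silent through replication, had -0.0018, and Smarcal1, which restarts stalled replication forks, had -0.0094.

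Further genes, 64 in all, were taken from a list of known partners. Most are further subunits of the same complexes, while 11 measured genes, among them Rad54l and Btaf1, were listed outside these families. Of the 64 genes, 63 were measured. Of the measured genes, 0 passed at an adjusted p under 0.05 in limma or in the t-test on linear values. At an unadjusted p under 0.05 in limma there were 7 with a higher and 1 with a lower level, beside 4.13% and 5.14% of all genes. Among the 11 outside the families, 10 differences were positive and 1 negative. Over all genes the median difference was -0.0049, with 9269 positive and 10668 negative. Over the 63 partners it was 0.032, with 44 positive and 19 negative. The 4 with the smallest p were Actr6, an actin-related subunit of the SRCAP complex (0.17, adjusted p = 0.396 from limma), Chd1l, an ATPase that answers to DNA damage (0.14, adjusted p = 0.399), Phf10, a PHD finger subunit of PBAF (0.11, adjusted p = 0.404), and Vps72, an H2A.Z chaperone of SRCAP (-0.085, adjusted p = 0.418). The ISWI partners Cecr2, Pole3, Chrac1, Pole4 and Hmgxb4 ran from -0.036 to 0.063.

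Whether Smarca5 followed the level of Nipbl was examined within each genotype, since the genotypes form separate clusters in Nipbl. Over 12 wild type embryos Pearson's r was 0.13 (permutation p = 0.683) and Spearman's rho 0.21 (permutation p = 0.514). Over 12 Nipbl+/- embryos r was 0.15 (permutation p = 0.637) and rho 0.049 (permutation p = 0.888). For Arid2, r was -0.18 (permutation p = 0.565) and 0.27 (permutation p = 0.394), and rho -0.25 and 0.37 (permutation p = 0.43 and 0.238). After Benjamini-Hochberg adjustment over these 4 relations every r had p = 0.683.

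Leaving out the 2 embryos farthest from the median of Nipbl gave r of 0.24 and 0.55 for Smarca5 in wild type and Nipbl+/- embryos (permutation p = 0.50 and 0.10). For Arid2 it gave -0.34 and 0.72 (permutation p = 0.328 and 0.0203, not adjusted). Nipbl itself went with the spread of the arrays, with r of 0.79 and 0.67 between its level and their interquartile range, and the part of this in the relations was not tested.

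Both calls were followed through 16 other fits. Smarca5 passed in 13 of them and Arid2 in 11, with differences over the 16 fits from 0.19 to 0.32 and from 0.14 to 0.20. The fits in which Smarca5 did not pass were those of 1 sex alone, and Arid2 was lost in these and with sex as a covariate, with or without wild type replicate 3. Leaving out wild type replicate 3 or Nipbl+/- replicate 2 from the fit without sex kept both calls. None of the 45 other members passed in any of the 16 fits. A term for sex by genotype reached a lowest adjusted p of 0.619 over the members in limma, and 1 member had an unadjusted p under 0.05 for it (Gatad2a, p = 0.0121 from limma).

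**Figure D5:**
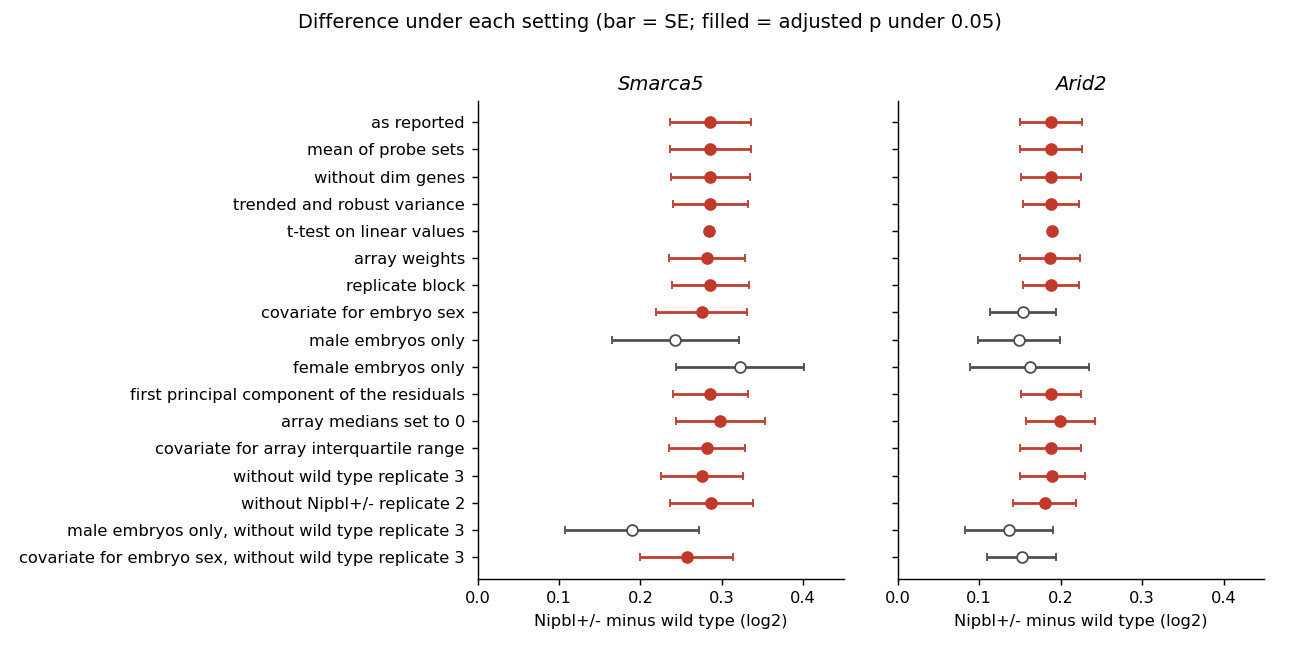
Log2 difference (Nipbl+/- minus wild type, horizontal axes) of Smarca5 and Arid2 as reported and in 16 other fits (rows), with standard errors as bars where the fit gives one; filled points have an adjusted p under 0.05 over all genes. Smarca5 stays between 0.19 and 0.32 and Arid2 between 0.14 and 0.20, and the open points are the fits of 1 sex and, for Arid2, the fits with sex as a covariate.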

How the data were processed

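RNA of both hindlimb buds of 12 wild type and 12 Nipbl+/- embryos was measured on 24 arrays. Per the methods, the authors used GenePattern's Expression File Creator on the array files and compared the classes with Comparative Marker Selection. The deposited values are log2 intensities per probe set, and the submitters' processing notes name RMA, with its version not given in these sources. RMA makes the distributions of arrays alike, so a change common to most genes would be hidden.

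Of 28159 probe sets, 21640 had a single symbol in the platform annotation, 1321 had several and 5198 had none. By Entrez ID, 21553 matched RefSeq genes of GRCm38.p6. The brightest probe set was kept for each of the 954 genes with several, which gave 19937 genes. Array medians ran from 7.24 to 7.39, and no pair of arrays held identical values.

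Genotypes were compared with limma 3.58.1 (R 4.3.3), adjusting p over all genes by Benjamini-Hochberg, with a threshold of 0.05. Paralog contrasts and correlations used 100000 permutations (scipy 1.17.1, Python 3.11.15), figures matplotlib 3.10.9, and fits of 1 sex for the paralog pairs an exact permutation test. On simulated data for this comparison with 50 changed genes at each size among 19937 genes, limma recovered 4% at a log2 change of 0.10, 52% at 0.20, 84% at 0.30 and 94% at 0.45, with 3 false calls. The simulated noise was independent between genes, while 34.3% of the residual variance of the data lay in the first component. The changed genes were drawn from all genes, whose median wild type SD was 0.127, beside 0.078 for the members. The false calls and recovery therefore need not hold for the members. The number of arrays limits the precision, and p-values measure the spread between embryos taken as independent. The embryos were littermates per the paper, but litters are not named in the labels and did not enter the fits.

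Sex was called from Xist and 3 Y-linked genes. As a covariate it entered as a continuous score, the mean of the Y-linked genes minus Xist, and not as the call of male or female. Alternatives were the mean of probe sets, no dim genes, trended and robust variance, array weights, a t-test on linear values, replicate number as a block, sex as a covariate or each sex alone, the first principal component of the residuals, array medians set to 0, the interquartile range as a covariate and a threshold of 0.25. Chosen after seeing the data were the fits without an array that stood apart, alone or with the fits by sex, the covariate for the shared Smarca5 probe sets, the sex by genotype term and the correlation of Arid2 with Nipbl. Genes named were Nipbl, members that passed, all ATPases, the 4 members of each family with the smallest p, the paralog pairs and the 4 partners with the smallest p. Other members were named to account for the whole list. The members, lists, pairs and tests were chosen with earlier results of these data known, among them the rise of Smarca5.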

Additional observations from a re-analysis of the deposited data

How the results depend on the processing

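The count of members higher in Nipbl+/- fell from 2 to 1 with sex as a covariate and to 0 in males alone and in females alone, where far fewer arrays were fitted; without wild type replicate 3 it was 1 with the sex covariate, 0 in males and 2 in all embryos. It was 2 in the other fits and 3 at a threshold of 0.25, where Baz2a joined, and the count lower was 0 in each. Smarca5 minus Smarca1 was 0.30 in males (exact permutation test, adjusted p = 0.318) and 0.45 in females (exact permutation test, adjusted p = 0.0970). Hdac1 minus Hdac2 was -0.025 with the mean of probe sets, since the second probe set annotated to Hdac1 was lower in Nipbl+/-. With replicate number as a block, Chd7 minus Chd8 passed (0.11, adjusted p = 0.0313 from exact sign flips), but with the mean of probe sets it fell to 0.080 (adjusted p = 0.330 from the permutation test). Under the replicate block Smarca5 (adjusted p = 0.00706 from limma) and Arid2 (adjusted p = 0.0140 from limma) kept their calls. The labels do not say what the replicate numbers mark. Same-numbered embryos correlated from -0.35 to 0.28, with 5 of 12 pairs over 0.1. Of 24 embryos, 4 correlated best with their own number. Such correlations cannot show whether same-numbered embryos shared a litter or batch. Of the 45 members not called, 19 kept the sign of their difference in every fit and 26 did not. Over all genes, 57 higher and 105 lower became 101 and 180 with array weights, 222 and 293 with the principal component, 186 and 303 with the interquartile range, 37 and 67 with array medians set to 0, 30 and 95 with sex as a covariate (27 and 158 without wild type replicate 3), 0 and 1 in males, with or without that replicate, and 0 and 7 in females (limma); other causes of these changes were not tested. In simulated data a log2 change of 0.10 was mostly missed at this number of arrays.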

Other observations

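The correlations between members across embryos were set beside those of all genes. With the genotype means removed, the median correlation between pairs of the 47 members over 24 embryos was 0.28 (from -0.77 to 0.88), beside 0.0093 over all pairs of the 19937 genes. By family it was 0.38 within ISWI, 0.30 within SWI/SNF, 0.18 within CHD/NuRD, 0.19 within INO80 and 0.36 among the other SNF2 ATPases. These are descriptions over arrays that share a scale: the correlation of a member with the interquartile range of its array ran from -0.87 (Chd5) to 0.87 (Chd2), with a median of 0.55 beside 0.079 over all genes, and the part of this in the correlations was not tested. Smarca5 and Arid2 had 0.27 with each other. Smarca5 ran from -0.33 with Baz2a to 0.53 with Baz1b. Arid2 ran from -0.40 with Mta2 to 0.81 with Chd3, an ATPase of NuRD, and had 0.79 with Bptf of NURF. With Chd4, the usual ATPase of NuRD, Arid2 had 0.25.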
